A study of Homo sapiens with 6 samples.

Results

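The genes described here are 56 genes of the endoplasmic reticulum (ER) folding machinery and of the unfolded protein response, chosen as a named list of gene symbols, and all 56 were found among the 35856 genes of the expression table. They comprise chaperones and their cofactors, disulfide isomerases and oxidases, prolyl isomerases, collagen hydroxylases, calcium-binding proteins of the CREC family, the sensors and transcription factors of the response, and components of ER-associated degradation. RNA was sequenced from HCCLM3, an established human hepatocellular carcinoma cell line with high metastatic capacity, after transfection with a vector that expresses the long non-coding RNA LINC00862 (the LINC00862 group, 3 libraries) or with the empty vector (the NC group, 3 libraries). The comparison asked what overexpression of LINC00862 does to the transcriptome of these cells. The labels name a single cell line and no clone, and the time between transfection and harvest, and whether the libraries came from separate cultures, are not given in the sources used here, so the p-values measure the spread between these libraries, which may be technical.

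Proteins that enter the ER are folded by HSP70, HSP90 and lectin chaperones, receive disulfide bonds from the protein disulfide isomerases, and are sent to degradation in the cytosol when folding fails. Unfolded protein in the ER lumen engages the membrane sensors IRE1 (encoded by ERN1 and ERN2), PERK (encoded by EIF2AK3) and ATF6, which act through the transcription factors XBP1, ATF4 and the ATF6 fragment to raise chaperone, degradation and amino acid genes, and through DDIT3 (CHOP) to promote cell death when the stress persists. Hepatocytes and liver tumour cells carry a large secretory load, and collagen-producing cells depend in addition on the prolyl and lysyl hydroxylases of the ER.

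The total counts lay between 58241123 and 68229070 per library, and 54 of the 56 genes passed the filter on low counts. The overexpressed gene itself had 11, 21 and 6 counts in the libraries labelled NC and 145, 121 and 76 in those labelled LINC00862. The groups also differed widely outside the ER genes. Of all 20741 tested genes, 34.4% passed the test at an adjusted p under 0.05 higher in LINC00862 and 29.8% lower. Summed over 12 fibroblast and mesenchymal markers, FPKM (the fragments of a gene scaled by its length and by the size of the library) was 612 to 670 in NC and 17.5 to 21.6 in LINC00862, with 7 of the 12 lower and 2 higher, while the sum over 8 epithelial markers was 194 to 288 in NC and 564 to 691 in LINC00862, with 7 of the 8 higher. The mean FPKM of VIM, the mesenchymal intermediate filament vimentin, was 539 ± 50.1 (SD, n = 3) in NC and 3.77 ± 0.102 in LINC00862, and that of EPCAM, an epithelial adhesion molecule, was 0.547 ± 0.0819 and 160 ± 10.8. The overexpressed gene itself was at a mean FPKM of 0.0507 ± 0.0343 in NC and 0.449 ± 0.12 in LINC00862, low in both groups. Of the 10 hepatocyte markers, APOA1 and APOA2 were near 0 in both groups and ALB, the defining one, was at 0.00781 in NC and 1.51 in LINC00862, whereas the summed FPKM of the 10 was 3.05 to 3.6 and 539 to 618, most of it in LINC00862 from the fibrinogen gene FGB. Of the 8 hepatocyte markers tested, 6 were higher and 2 lower, the latter being SERPINA1 (1.28 ± 0.216 FPKM in NC and 0.095 ± 0.0428 in LINC00862) and AFP (68 counts over the NC group and 0 over the LINC00862 group). The summed FPKM of 5 leukocyte markers was 2.82 to 3.6 and 9.08 to 15.1, with CD14 (1.69 and 5.59) and CD68 (1 and 6.81) higher and the defining PTPRC, at 0.283 and 0.198, not passing the test, and that of 4 endothelial markers 1.17 to 1.74 and 4.44 to 5.89, of which only CDH5 was higher. The labels call both groups HCCLM3, but with marker differences of this size it is in doubt whether the groups were the same cells apart from the vector, and an effect of LINC00862 and any other difference between the cells of the groups cannot be told apart in any fold change given here. The part of the marker differences in the values of the ER genes was not tested, and in bulk RNA fewer cells of a type and less RNA per cell cannot be told apart.

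Several of the ER genes carry short promoter motifs through which the unfolded protein response is known to act, and these were read from the 250 bases before the RefSeq start sites (GRCh38.p14) of the 51 genes with a promoter in that table. Both strands were searched for 4 motifs. They were the ER stress response element ERSE (CCAAT and CCACG with 9 free bases between them), its second form ERSE-II (ATTGG and CCACG with 1 free base between them), the core of the unfolded protein response element UPRE (TGACGTGG) and the C/EBP-ATF response element CARE (TGATGNAA), to which ATF4 binds. ERSE was found in 8 of the 51 genes (15.7%) and in 0.074% of 35116 promoters, ERSE-II in 3 genes (5.88%) and 0.0513%, the UPRE core in 3 genes (5.88%; DNAJC10, HYOU1 and TXNDC5) and 0.612%, and CARE in 1 gene (1.96%) and 3.14%. A gene counted if any of its promoters, 65 over the 51 genes, held the motif. The second share is per promoter, and includes the promoters of these genes. In HYOU1 the UPRE core overlaps 1 of its ERSE-II. These are matches of letters, not sites shown to be bound, and HSPA5 is among the genes in which ERSE was first described. The ERSE and ERSE-II matches of the 11 genes that held either are printed. The fixed letters are those searched for, so their likeness between genes follows from the search. Of the degradation genes only HERPUD1 is among them, with an ERSE-II, and chaperones such as DNAJB11, DNAJC3 and SIL1 held neither. Each match is read on the strand on which the motif runs 5′ to 3′. The fixed letters are in capitals and the free positions in lower case.
HSPA5, chr9:125241391-125241409, minus strand: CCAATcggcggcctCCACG
XBP1, chr22:28800603-28800621, minus strand: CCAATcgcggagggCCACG
HSP90B1, chr12:103930216-103930234, plus strand: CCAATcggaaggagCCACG
HSP90B1, chr12:103930321-103930339, minus strand: CCAATcgcgccgcaCCACG
PDIA6, chr2:10812853-10812871, minus strand: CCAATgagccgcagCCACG
CANX, chr5:179698778-179698796, plus strand: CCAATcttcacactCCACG
ERO1B, chr1:236282183-236282201, plus strand: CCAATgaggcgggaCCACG
CRELD2, chr22:49918554-49918572, minus strand: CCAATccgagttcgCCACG
CALR, chr19:12938384-12938402, minus strand: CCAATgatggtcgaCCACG
HERPUD1, chr16:56932025-56932035, plus strand: ATTGGgCCACG
HYOU1, chr11:119057274-119057284, plus strand: ATTGGaCCACG
HYOU1, chr11:119057380-119057390, plus strand: ATTGGaCCACG
SDF2L1, chr22:21642114-21642124, minus strand: ATTGGtCCACG

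The ERSE of XBP1 began 52 bases and that of HSPA5 66 bases before the start, on the strand of the gene. The promoter of HERPUD1, an ER membrane protein of the degradation machinery, held both an ERSE-II and the only CARE found. Its 250 bases (chr16:56931892-56932141, plus strand) are given with the CARE, which lies on the opposite strand, as the first run of capitals and the ERSE-II as the second.
HERPUD1: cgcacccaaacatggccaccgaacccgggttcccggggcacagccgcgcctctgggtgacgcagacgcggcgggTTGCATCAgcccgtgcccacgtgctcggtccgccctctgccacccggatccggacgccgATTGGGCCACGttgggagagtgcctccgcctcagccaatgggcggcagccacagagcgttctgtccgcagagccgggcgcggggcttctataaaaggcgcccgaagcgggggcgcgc

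The 250 bases of HSPA5 (chr9:125241344-125241593, minus strand) are given for comparison as those of the chaperone with the highest FPKM in LINC00862, with the ERSE in capitals. In these letters CCAAT stands on the same strand 2 more times without the remaining letters of the motif.
HSPA5: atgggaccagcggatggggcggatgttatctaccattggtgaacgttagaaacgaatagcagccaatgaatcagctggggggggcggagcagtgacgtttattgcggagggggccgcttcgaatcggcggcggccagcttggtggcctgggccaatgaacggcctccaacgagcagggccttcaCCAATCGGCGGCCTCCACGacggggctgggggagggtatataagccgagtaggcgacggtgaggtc

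As a whole the ER genes were higher in LINC00862 than in NC. Of the 54 tested, 44 (81.5%) passed the test at an adjusted p under 0.05, 36 of them higher and 8 lower, where 64.2% of all 20741 tested genes passed it, 34.4% higher and 29.8% lower. The median log2 fold change, LINC00862 over NC, was 0.96 over the 54 genes and 0.11 over all tested genes. At least 2-fold changes that passed the test were seen in 32 genes, 26 higher and 6 lower, against 49.8% of all tested genes, and the FPKM ranges of the groups did not overlap in 43 of the 54, against 71.1%. The 56 genes held 1.34%, 1.25% and 1.35% of all counts in NC libraries 1 to 3, while the share was 2.25%, 2.24% and 1.87% in LINC00862 libraries 1 to 3. Their share of the summed FPKM was 0.95%, 0.782% and 0.939% in NC and 1.18%, 1.18% and 0.817% in LINC00862. By that measure the third LINC00862 library lay within the NC range. The third LINC00862 library was the lowest of its group for many of these genes, and its 10 most abundant genes held 29.2% of its counts, against 19.4% and 20.2% in the other LINC00862 libraries and 8.42% to 11.7% in NC.

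**Figure D1:**
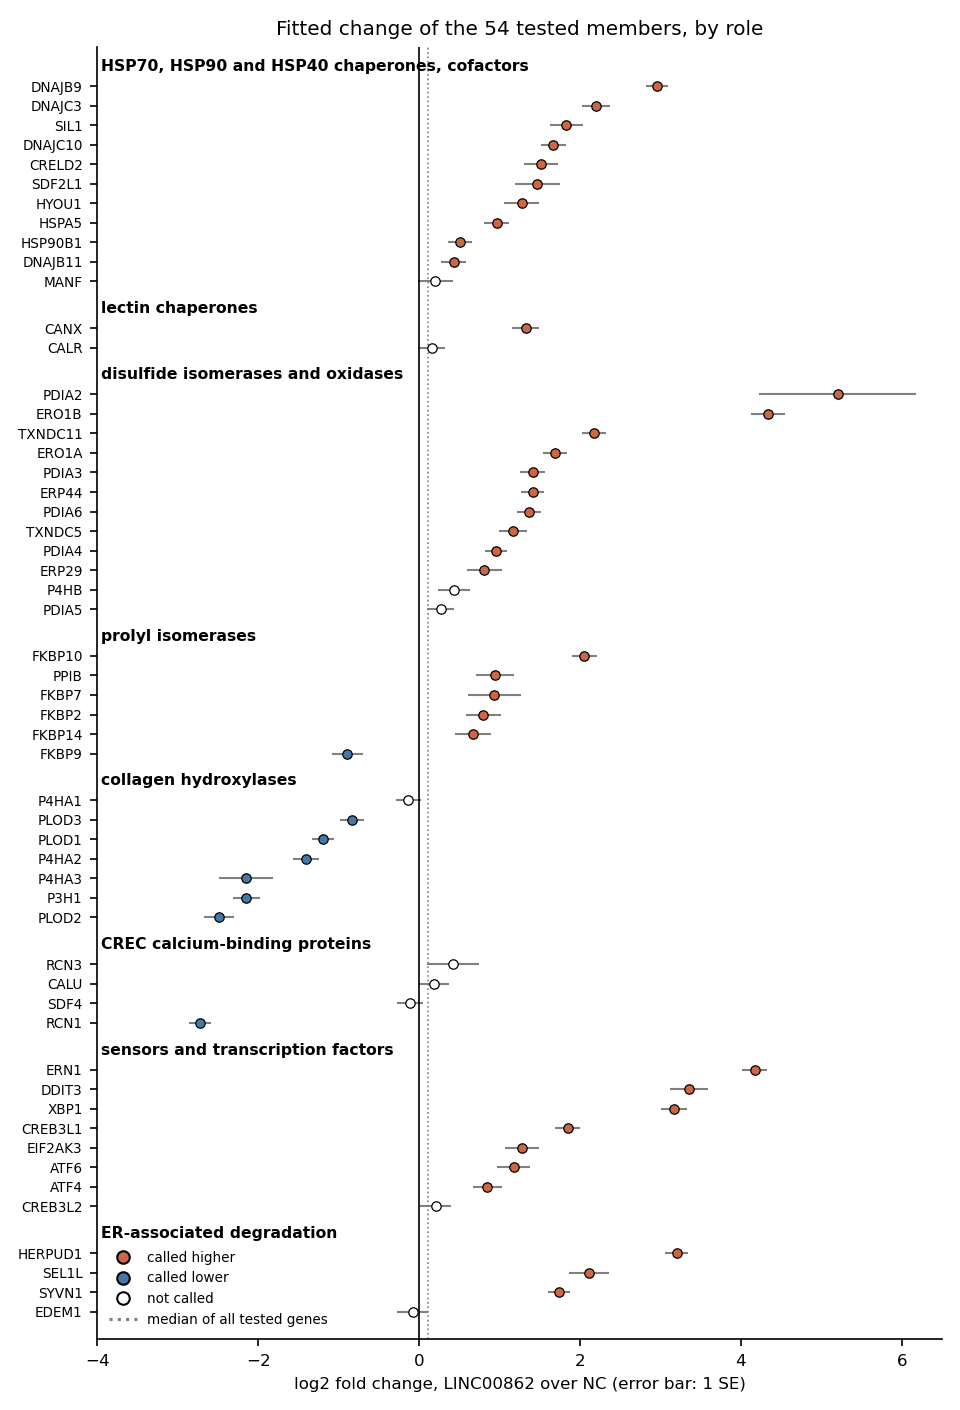
Fitted log2 fold change (LINC00862 over NC, horizontal axis) with 1 standard error for each of the 54 tested ER genes, grouped by role. Red points passed the test higher, blue points passed it lower and white points did not pass it. The blue points are the 6 collagen hydroxylases, FKBP9 and RCN1, and the dotted line is the median of all tested genes at 0.11.

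The sensors and transcription factors showed some of the widest differences. Of 10 genes, 8 were tested and 7 were higher (34.4% of all tested genes), with a median log2 fold change of 1.56. ERN1 (ENSG00000178607, chr17:64039142-64130819), the gene of the IRE1 kinase and endonuclease, had FPKM of 0.534, 0.409 and 0.474 in NC and 8.04, 7.79 and 6.9 in LINC00862. The lowest LINC00862 library thus lay far above the highest NC library, with a log2 fold change of 4.17 (SE 0.15, Benjamini-Hochberg adjusted p = 9.46e-08 by the quasi-likelihood test of edgeR, the source of each adjusted p given here). XBP1 (ENSG00000100219, chr22:28794555-28800597), whose messenger RNA is cut by IRE1 to make the active factor, had FPKM of 23.6, 26.9 and 21.7 in NC and 209, 198 and 173 in LINC00862, a log2 fold change of 3.17 (SE 0.16, adjusted p = 5.23e-07). The 2 groups were well apart in this gene too. Counts per gene do not separate the spliced from the unspliced form of XBP1.

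On the PERK side, the sensor EIF2AK3 had FPKM of 6.58, 4.17 and 3.28 in NC and 10.4, 10.8 and 8.59 in LINC00862, with no overlap and a log2 fold change of 1.28 (SE 0.21, adjusted p = 0.000654). ATF4 (ENSG00000128272), the factor made when PERK slows translation, had FPKM of 129, 165 and 170 in NC and 255, 258 and 232 in LINC00862, a log2 fold change of 0.85 (SE 0.18, adjusted p = 0.00256). ATF4 was the most abundant gene of the group in both conditions, and its protein level, which is set largely by translation, was not measured here. DDIT3, the gene of CHOP, had FPKM of 10.8, 15.8 and 17.8 in NC and 145, 137 and 125 in LINC00862, the widest difference after ERN1, with a log2 fold change of 3.35 (SE 0.24, adjusted p = 3.24e-06). DDIT3 (chr12:57516588-57521737) lies across from MARS1 and MBD6 on the opposite strand, whose counts were 213% and 53.1% of its own and whose log2 fold changes were 0.97 and 1.03. The libraries kept strand, but whether the counting used it is not stated, so reads of such neighbours cannot be told apart from those of DDIT3.

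ATF6, which is cut in the Golgi to release its active fragment, had FPKM of 6.36, 4.16 and 3.51 in NC and 10.4, 10.6 and 6.99 in LINC00862, a log2 fold change of 1.17 (SE 0.21, adjusted p = 0.00103). The third LINC00862 library lay close to the first NC library. Of the ATF6 relatives, CREB3L1 had FPKM of 12.8, 11.3 and 14 in NC and 43.8, 37.2 and 40.2 in LINC00862, with a log2 fold change of 1.85 (SE 0.16, adjusted p = 1.07e-05). CREB3L2 did not pass the test (log2 fold change 0.20, SE 0.20, adjusted p = 0.386), and its FPKM of 13.4 in the first NC library was above every other library. The ratio of CREB3L1 to CREB3L2 in FPKM, chosen after the values were known, was 0.95, 1.54 and 1.74 in NC and 4.55, 3.76 and 4.23 in LINC00862. The remaining pair was not tested. ERN2, the epithelial IRE1, had 0 counts in NC and 16 in LINC00862 over the group, and CREB3L3, the liver form of the family, had 0 and 4. A floor of 3 counts over the NC group puts ERN2 at least 5.08-fold higher in group totals. Its LINC00862 libraries had 9, 7 and 0 counts, so the third did not differ from NC. PLK1 overlaps ERN2 on the opposite strand with far more counts, and CREB3L3 was close to the floor in both groups.

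**Figure D2:**
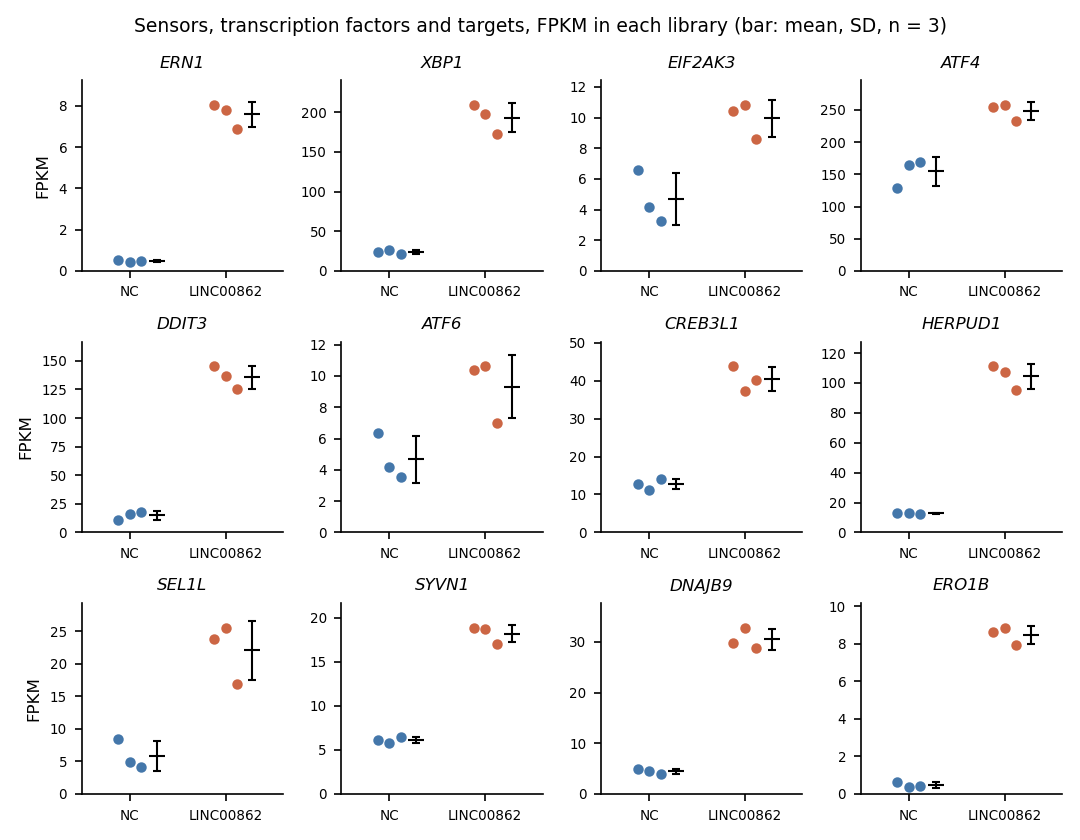
FPKM in each library (points; vertical axes start at 0) with the mean and SD (bars, n = 3) for 12 genes of the response: sensors, transcription factors, degradation genes, DNAJB9 and ERO1B. NC is blue and LINC00862 red. In all 12 panels the groups do not overlap, and the gap is narrowest in ATF6.

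The genes of ER-associated degradation followed, with 3 of 4 higher (34.4% of all tested genes) and a median log2 fold change of 1.93. HERPUD1 (ENSG00000051108), which organises the degradation complex, had FPKM of 12.9, 12.8 and 12.5 in NC and 111, 107 and 95.2 in LINC00862, a log2 fold change of 3.21 (SE 0.14, adjusted p = 2.56e-07). The NC libraries hardly differed in this gene. SEL1L, the adaptor of the complex, had FPKM of 8.46, 4.82 and 4.12 in NC and 23.8, 25.5 and 16.9 in LINC00862, a log2 fold change of 2.11 (SE 0.24, adjusted p = 6.85e-05), and its ubiquitin ligase partner SYVN1 had 6.1, 5.75 and 6.47 and then 18.8, 18.7 and 17.1 (log2 fold change 1.74, SE 0.14, adjusted p = 6.03e-06). SYVN1 overlaps FAU on the same strand and MRPL49 on the opposite one, with 292% and 79.5% of its counts and log2 fold changes of -1.18 and -0.78. EDEM1, which trims mannose from glycoproteins bound for degradation, did not pass the test (log2 fold change -0.08, SE 0.19, adjusted p = 0.747), and its groups overlapped, with 11.2, 6.18 and 6.69 in NC and 6.73, 7.22 and 6.04 in LINC00862.

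Among the HSP70, HSP90 and HSP40 chaperones and their cofactors, 10 of 11 were higher and none lower, with a median log2 fold change of 1.47. HSPA5 (ENSG00000044574, chr9:125234853-125241343), the HSP70 of the ER also called BiP, had FPKM of 293, 274 and 312 in NC and 543, 532 and 451 in LINC00862. The groups did not overlap, and the difference was 1.95-fold (log2 fold change 0.97, SE 0.16, adjusted p = 0.000592). HSP90B1 (ENSG00000166598), the ER HSP90 known as GRP94, had FPKM of 317, 313 and 301 in NC and 414, 420 and 344 in LINC00862, a smaller difference of 1.42-fold (log2 fold change 0.51, SE 0.15, adjusted p = 0.015). HSP90B1 did not pass the test in 6 of 13 alternative analyses, which included scaling by library size only and leaving out the first or second LINC00862 library. The ratio of HSP90B1 to HSPA5 in FPKM, chosen after the values were known, was 1.08, 1.14 and 0.965 in NC and 0.762, 0.79 and 0.763 in LINC00862.

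The largest differences of this group were in HSP70 cofactors of low abundance. DNAJB9, an HSP40 that restrains IRE1 and assists degradation, had FPKM of 4.88, 4.42 and 4.02 in NC and 29.8, 32.8 and 28.9 in LINC00862, a log2 fold change of 2.95 (SE 0.14, adjusted p = 3.05e-07). DNAJC3, the HSP40 known as p58IPK, which limits PERK, had 11.2, 7.14 and 7.34 and then 35.9, 34.7 and 32.9 (log2 fold change 2.20, SE 0.17, adjusted p = 5.95e-06). SIL1, the nucleotide exchange factor of HSPA5, had 6.5, 7.59 and 9.17 and then 27.4, 28.4 and 18.6 (log2 fold change 1.83, SE 0.21, adjusted p = 6.1e-05). In each of these the groups were separate. The disulfide reductase DNAJC10 (log2 fold change 1.67), CRELD2 (1.51), the HSP40 partner SDF2L1 (1.47) and the HSP110-type exchange factor HYOU1 (1.28) also rose. DNAJB11, another HSP40, passed the test at a log2 fold change of 0.43 (SE 0.16, adjusted p = 0.0376) and lost it in 9 of 13 alternatives. MANF, a secreted ER stress protein, did not pass it (log2 fold change 0.20, SE 0.22, adjusted p = 0.446), with FPKM of 43.5, 60.2 and 70.1 in NC and 68.9, 62.6 and 48.3 in LINC00862. CRELD2 overlaps ALG12 on the opposite strand, which had 32.9% of its counts and a log2 fold change of 0.96.

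The lectin chaperones, which hold newly made glycoproteins, parted. CANX (ENSG00000127022), the membrane-bound calnexin, had FPKM of 163, 123 and 108 in NC and 299, 318 and 254 in LINC00862, a log2 fold change of 1.32 (SE 0.17, adjusted p = 0.00015). CALR (ENSG00000179218), its soluble relative calreticulin, had the highest FPKM of the 56 genes in NC, at 394, 372 and 457, and had 446, 425 and 345 in LINC00862. The groups overlapped in CALR and it did not pass the test (log2 fold change 0.16, SE 0.17, adjusted p = 0.438). The ratio of CALR to CANX, chosen after the values were known, was 2.41, 3.03 and 4.22 in the NC libraries and 1.49, 1.34 and 1.36 in the LINC00862 libraries.

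Of the 12 disulfide isomerases and oxidases, 10 were higher and none lower, against 34.4% and 29.8% of all tested genes. The median log2 fold change of the 12 was 1.39. The widest difference among the genes with over 100 counts in each group was in an oxidase that recharges the isomerases. ERO1B (ENSG00000086619), the ERO1 form known from secretory cells, had FPKM of 0.655, 0.377 and 0.398 in NC and 8.61, 8.86 and 7.94 in LINC00862, a log2 fold change of 4.33 (SE 0.21, adjusted p = 3.66e-07), while the widely expressed ERO1A rose with a log2 fold change of 1.69 (SE 0.15, adjusted p = 1.2e-05) from 16.2 ± 2.45 to 45.8 ± 1.96 (SD, n = 3). ERO1B nevertheless stayed below ERO1A, at an FPKM ratio, chosen after the values were known, of 0.029 ± 0.00478 in NC and 0.185 ± 0.016 in LINC00862. PDIA2, the pancreatic isomerase, had the largest fitted value, 5.20 (SE 0.98, adjusted p = 0.00133), but from 4 counts over the NC group and 147 over the LINC00862 group, and its FPKM was 0.0241, 0 and 0 in NC and 0.328, 0.193 and 0.399 in LINC00862. All 4 NC counts lay in the first library, without which the fitted value was 8.65 against a group at 0, so neither value gives the size of the difference. TXNDC11 had FPKM of 4.06, 3.4 and 4.15 in NC and 16.7, 16.4 and 13.3 in LINC00862 (log2 fold change 2.17, SE 0.15, adjusted p = 2.92e-06); SNN overlaps it on the opposite strand with 14.6% of its counts.

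The abundant isomerases differed less. PDIA3, which works with the lectin chaperones, rose from 131 ± 7.07 to 311 ± 31.9 (SD, n = 3; log2 fold change 1.41, adjusted p = 4.76e-05), and PDIA6, which helps to switch off IRE1, from 114 ± 2.37 to 261 ± 38.3 (1.37, adjusted p = 5.3e-05). The retention chaperone ERP44 rose with a log2 fold change of 1.41, TXNDC5 with 1.17, PDIA4 with 0.95 and ERP29 with 0.81. P4HB, the first-described disulfide isomerase and the beta subunit of collagen prolyl 4-hydroxylase, had the highest FPKM of the group in both conditions, with 241, 239 and 311 in NC and 356, 357 and 248 in LINC00862. Its groups overlapped through the third library of each, and it did not pass the test (log2 fold change 0.44, SE 0.20, adjusted p = 0.0815), although it did in 4 of 13 alternatives, one of them leaving out the third NC library (log2 fold change 0.62, adjusted p = 0.0229) and one leaving out the third LINC00862 library (0.56, adjusted p = 0.0488). PDIA5 did not pass it either (log2 fold change 0.27, SE 0.16, adjusted p = 0.184), except with upper quartile scaling, and it overlaps SEC22A on the same strand, which had 64.8% of its counts.

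All 6 prolyl isomerases passed the test, 5 of them higher and FKBP9 lower, against 64.2% of all tested genes, 34.4% higher and 29.8% lower. The median log2 fold change of the 6 was 0.87. PPIB (ENSG00000166794), cyclophilin B, which acts on collagen and other secreted chains, had FPKM of 208, 305 and 352 in NC and 506, 479 and 505 in LINC00862 (log2 fold change 0.95, SE 0.23, adjusted p = 0.00603). The NC libraries were spread more widely here than the LINC00862 libraries. FKBP10, a collagen chaperone also called FKBP65, had 18, 19.6 and 21.6 and then 77.4, 75.7 and 66.1 (log2 fold change 2.06, SE 0.16, adjusted p = 5.2e-06). FKBP9, a relative of FKBP10, moved the other way, with 14.8, 9.63 and 10.5 and then 6.29, 6.35 and 3.97 (log2 fold change -0.89, SE 0.19, adjusted p = 0.00311). FKBP7 (0.94), FKBP2 (0.80) and FKBP14 (0.67) passed the test with smaller values. FKBP14 passed it although its FPKM ranges overlapped, and FKBP7 and FKBP14 lost the call in 6 and 7 of 13 alternatives. FKBP2 overlaps AP001453 on the same strand, which had 111% of its counts.

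The collagen hydroxylases differed in the opposite direction, with 6 of 7 lower and none higher, against 29.8% and 34.4% of all tested genes. The hydroxylases had a median log2 fold change of -1.41. Their summed FPKM was 161 ± 18.5 (SD, n = 3) in NC and 57.9 ± 7.28 in LINC00862. PLOD2 (ENSG00000152952, chr3:146069440-146161184), the lysyl hydroxylase of collagen telopeptides, had FPKM of 79.7, 56.9 and 45.8 in NC and 9.8, 9.48 and 9.2 in LINC00862, and was the most abundant of the group in NC. Its log2 fold change was -2.49 (SE 0.19, adjusted p = 4.98e-06), and those of the lysyl hydroxylases PLOD1 and PLOD3 were -1.20 (adjusted p = 7.21e-05) and -0.83 (adjusted p = 0.000906). PLOD3 overlaps ZNHIT1 on the opposite strand, which had 69.4% of its counts.

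P3H1, the prolyl 3-hydroxylase of collagen I, had FPKM of 8.72, 9.14 and 10.3 in NC and 2.12, 1.97 and 1.55 in LINC00862 (log2 fold change -2.15, SE 0.17, adjusted p = 6.07e-06). The alpha subunits of prolyl 4-hydroxylase, which pair with P4HB, were not alike. P4HA2 fell by 1.41 on the log2 scale (SE 0.16, adjusted p = 7.09e-05), from 19.5 ± 1.37 to 6.55 ± 1.31 FPKM. P4HA1 did not pass the test (log2 fold change -0.13, SE 0.15, adjusted p = 0.469), at 27.6, 24 and 20.5 in NC and 21.6, 21.4 and 15.3 in LINC00862. P4HA3 had 0.905, 0.575 and 0.994 and then 0.169, 0.156 and 0.162 (log2 fold change -2.15, SE 0.33, adjusted p = 0.000424), but PPME1, on the opposite strand across the same span, had 6980% of its counts and a log2 fold change of -2.05, so without strand the reads of P4HA3 and PPME1 cannot be told apart. P4HA2 overlaps PDLIM4 on the opposite strand, which had 21.5% of its counts and a log2 fold change of -7.58. The FPKM ratio of P4HA2 to P4HB, chosen after the values were known, was 0.0744 ± 0.00649 in NC and 0.0204 ± 0.000204 in LINC00862, and that of P4HA1 to P4HB was 0.0935 ± 0.025 and 0.0608 ± 0.000955.

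**Figure D3:**
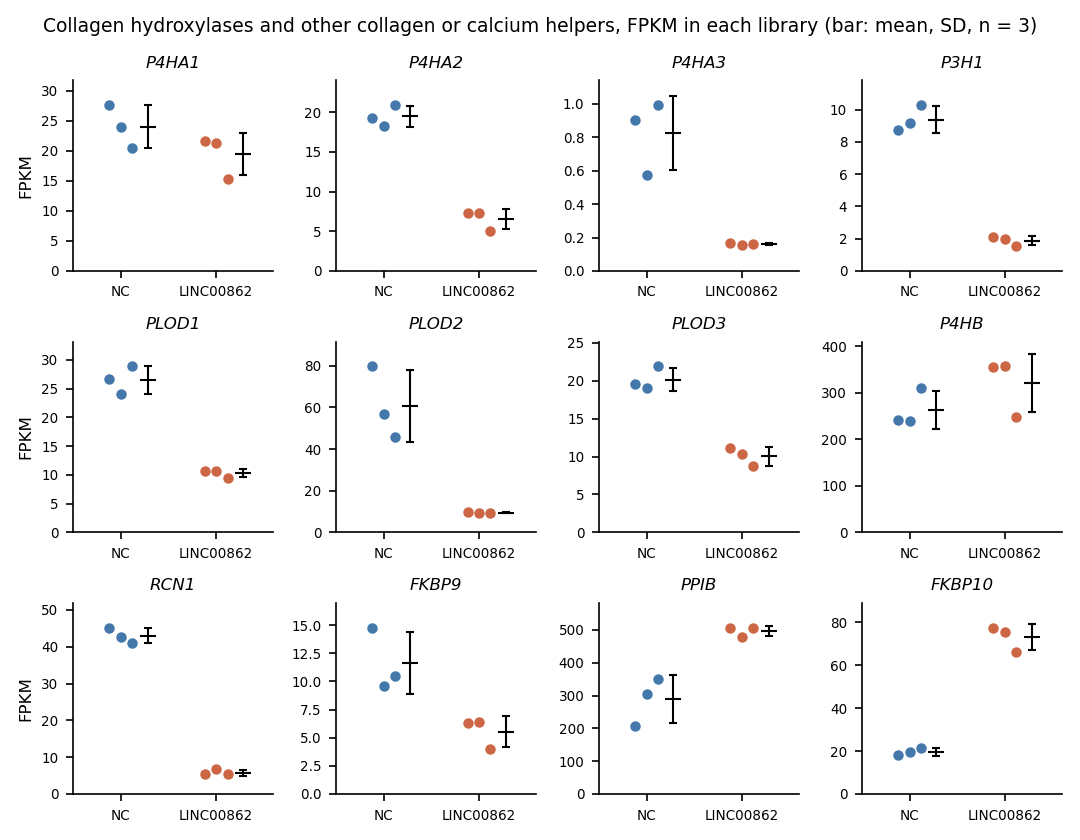
FPKM in each library (points; vertical axes start at 0) with the mean and SD (bars, n = 3) for the 7 collagen hydroxylases and for P4HB, RCN1, FKBP9, PPIB and FKBP10. NC is blue and LINC00862 red. PLOD2 and RCN1 show the widest falls, P4HA1 and P4HB overlap, and PPIB and FKBP10 are higher in LINC00862.

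Of the 4 CREC genes, which bind calcium in the secretory pathway, 1 passed the test, against 64.2% of all tested genes. RCN1 (ENSG00000049449, chr11:32091074-32105722), reticulocalbin 1, had FPKM of 45.1, 42.6 and 41.1 in NC and 5.36, 6.65 and 5.28 in LINC00862, the lowest log2 fold change of all 54 tested genes at -2.72 (SE 0.14, adjusted p = 5.49e-07). CALU, RCN3 and SDF4 had log2 fold changes of 0.18, 0.42 and -0.11 with adjusted p of 0.442, 0.276 and 0.578 and overlapping ranges. CALU, calumenin, which had the highest FPKM of these genes, stood at 68.4, 41 and 40.2 in NC and 53.7, 54.8 and 40.7 in LINC00862, and passed the test only when the first NC library was left out (log2 fold change 0.41, adjusted p = 0.0216), as did CREB3L2 (0.46, adjusted p = 0.00833).

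Set beside each other by level, the 5 genes with the highest FPKM in NC were CALR, HSP90B1, HSPA5, PPIB and P4HB, and in LINC00862 they were HSPA5, PPIB, CALR, HSP90B1 and P4HB. Within LINC00862, HSPA5 (509 ± 50 FPKM, SD, n = 3) and PPIB (497 ± 15.6) differed by less than their spread, as did CALR (405 ± 53.6) and HSP90B1 (393 ± 42.1). PLOD2 stood at rank 11 of the 56 genes in NC and 40 in LINC00862, and RCN1 at 15 and 48. XBP1 went from rank 21 to 10, DDIT3 from 28 to 11 and HERPUD1 from 30 to 13.

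Read against the promoter motifs, 12 of the 13 genes with any of the 4 motifs were higher and none lower, with a median log2 fold change of 1.37. The exception was CALR, which holds an ERSE and did not pass the test. Of all tested genes, 34.4% were higher and 29.8% lower. Of the 37 tested genes with a promoter but no motif, 21 were higher, 7 lower and 9 did not pass it, with a median of 0.81. The 7 lower ones were the collagen hydroxylases P3H1, P4HA2, PLOD1, PLOD2 and PLOD3, with RCN1 and FKBP9. No collagen hydroxylase had a motif match. The parts of role and of the motifs in this contrast were not tested. Among ERSE holders the log2 fold change ran from 0.16 in CALR and 0.51 in HSP90B1, which has 2 ERSE, to 3.17 in XBP1 and 4.33 in ERO1B. DNAJB9, ERN1 and DDIT3, all among the widest differences, had none of the 4 motifs in these 250 bases. Outside the 56 genes, 32 genes held an ERSE or ERSE-II, and 21 of them were tested. Of these, 10 were higher and 6 lower, to be read against 34.4% higher and 29.8% lower of all tested genes. FICD, which modifies HSPA5, was at a log2 fold change of 1.27 and SYNPO, the lowest, at -2.09 (named after their values were seen).

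Further genes were followed in 8 lists, whose counts are to be read against the 34.4% higher and 29.8% lower of all tested genes. Of 23 known targets of ATF4 and CHOP, 19 were higher and 3 lower, with a median log2 fold change of 1.48 and a summed FPKM of 366 to 399 in NC and 1345 to 1509 in LINC00862. GDF15, a stress-induced secreted factor of the TGF-beta family, had FPKM of 6.27, 6.57 and 6.26 in NC and 746, 699 and 668 in LINC00862 (log2 fold change 6.96, SE 0.19, adjusted p = 2.9e-08). FGF21, a hormone induced by ATF4 in liver, had 0 counts over the NC group and 428 over the LINC00862 group, at least 136-fold higher at a floor of 3 counts over the group. The 3 lower genes were DDIT4, PHGDH and STC2, and PPP1R15A, which undoes the PERK signal, rose least among the 19, with a log2 fold change of 0.38 (these 4 named after their values were seen).

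Other ER genes formed 4 of the lists, to be read against the 34.4% higher and 29.8% lower of all tested genes. Of 21 other ER-associated degradation genes, 8 were higher and 7 lower (median log2 fold change 0.18), with DERL3, a derlin of the degradation channel, from 0.0478 ± 0.0235 to 4.78 ± 0.666 FPKM (log2 fold change 6.56, adjusted p = 3.41e-07) and EDEM3 at 2.06 (adjusted p = 5.31e-05). Of 17 translocon and signal peptidase genes, 7 were higher and 2 lower (median 0.47), led by SSR1 at 2.48 (adjusted p = 1.58e-06) and SEC11C at 1.93 (adjusted p = 1.71e-05). Of 14 genes for N-glycosylation and glycan trimming, 3 were higher and 3 lower (median 0.17), with the oligosaccharyltransferase subunit TUSC3 at -1.43 (adjusted p = 3.74e-05) and the glucosidase MOGS at 0.66 (adjusted p = 0.00561), which lost the call in limma-trend fits of FPKM with a pseudocount of 1 (adjusted p = 0.0544) and of 0.1 (adjusted p = 0.0518). Of 21 other ER folding genes tested, 8 were higher and 6 lower (median 0.16), with the calnexin relative CLGN at 2.27 (adjusted p = 3.18e-06) and CNPY4 at -3.22 (adjusted p = 0.000169).

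The heat shock proteins of the cytosol and mitochondria, which belong to other stress responses, included 5 higher and 9 lower genes of 16. The median of the list was -0.57. The mitochondrial HSPA9 (1.21) and HSPD1 (0.89) were among the higher ones, and HSPE1 (0.44) did not pass the test (named after their values were seen). HSPB1 was the lowest of the list, at -1.53 (adjusted p = 0.00143, named after its value was seen). HSPA1A and HSPA1B passed the test at 1.71 (adjusted p = 1.91e-05) and 1.70 (adjusted p = 1.16e-05), but they are nearly identical copies whose reads cannot be assigned with certainty. Of 13 other genes that process collagen, 9 were lower and 3 higher (median -1.32), with the lysyl oxidases LOXL2 at -6.48 (adjusted p = 3.05e-08) and LOXL1 at -6.26 (adjusted p = 6.79e-08). Of 11 collagen genes, 6 were lower and 2 higher (median -3.32), with COL5A2 at -5.96 (adjusted p = 1.22e-07) and COL5A1 at -5.67 (adjusted p = 1.29e-07). The higher ones were COL1A1, from 2.43 ± 0.199 to 10.6 ± 2.45 FPKM, and COL6A3, from 0.0728 ± 0.021 to 0.161 ± 0.0131 (named after their values were seen). The list shares COL1A1, COL1A2 and COL3A1 with the mesenchymal markers given above, and the part of the difference in those markers in the collagen hydroxylases was not tested.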

How the data were processed

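Polyadenylated RNA of 6 HCCLM3 libraries, 3 per group, was captured on oligo(dT) beads, made into dUTP-marked stranded libraries with unique molecular identifiers in the adapters, and sequenced in pairs. The submitters' processing notes name cutadapt 1.9, HISAT2 2.0.4, UMI-tools, StringTie 1.3.4d, DESeq2, edgeR and hg38, without the role of each, and whether the counting used strand or collapsed the identifiers is not given in the sources used here. The authors deposited 1 table with the raw read count of each gene and library and the FPKM, which the authors scaled by transcript length and mapped fragments. The table's annotation columns (pathway and ontology terms, descriptions) were not used.

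The counts were tested with edgeR 4.0.16 in R 4.3.3: genes kept by filterByExpr, TMM scaling, a quasi-likelihood test between the groups and Benjamini-Hochberg adjustment over all 20741 tested genes at 0.05. Levels are given as FPKM, and fold changes come from the count model. Standard errors were derived from the test statistic. With 3 libraries against 3, an exact two-sided permutation test of 1 gene cannot go below 0.1. The edgeR test was tried on simulated counts with known changes in a small part of the genes. That trial does not show how the test and the scaling behave where most genes differ. Floors of 3 counts cover counting error only.

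The members, the role groups, the other lists and the ratios were chosen with earlier results of these data known, so no count over them is independent support. Per-library values are given for HSPA5, HSP90B1, ATF4, ATF6, XBP1, ERN1, EIF2AK3 and DDIT3 and, in each role group, for the most abundant gene and up to 3 called genes with the largest change; in other lists up to 2 called genes with the largest change are named where either group averaged an FPKM of 1 or more. Values of other members and of single marker genes, and genes marked as such, were added after they were seen. The numbers of the replicates carried no pairing, since the deviations from the group means of libraries with the same number had correlations of -0.0489, -0.0254 and -0.00737. Gene spans are those of the table, promoters those of RefSeq (GRCh38.p14). Alternatives were DESeq2 1.42.0, upper quartile scaling, library size only, every gene with at least 1 count, limma-trend (limma 3.58.1) on log2(FPKM + 1) and log2(FPKM + 0.1), a replicate block, and leaving out each library in turn. Python 3.11.15 with pandas 2.3.3 made the tables, and matplotlib 3.10.9 the figures.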

Additional observations from a re-analysis of the deposited data

How the results depend on the processing

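Over the 13 alternatives, 40 to 46 of the 54 tested ER genes were called, and 40 of the 44 called ER genes stayed called in every one, none of the 44 changed sign, and the number lower was 8 throughout. DNAJB11, FKBP14, FKBP7 and HSP90B1 lost the call in 9, 7, 6 and 6 alternatives, and P4HB gained it in 4 and CALU, CREB3L2 and PDIA5 in 1 each. Among the genes not called, EDEM1, P4HA1 and SDF4 turned positive with upper quartile scaling, at 0.14, 0.08 and 0.1. EDEM1 was also positive, at up to 0.17, with 1 library left out. CALR turned negative, at -0.01, in a fit of FPKM, and MANF reached -0.0 with 1 library left out. The median log2 fold change of the ER genes was 1.17 with upper quartile scaling, 0.8 with library size only and 0.778 with limma-trend on log2(FPKM + 1), while that of all tested genes was 0.324, -0.0512 and -0.0134, so changes are best read relative to that shift. On log2(FPKM + 1), whose pseudocount shrinks changes of low genes, ERN1, ERO1B, P4HA3 and PDIA2 stayed called at 2.54, 2.68, -0.64 and 0.37. With the replicate block, 41 ER genes were called, 33 higher and 8 lower, 12098 of all genes were called, and the N-glycosylation list had 3 called genes in place of 6; the numbers did not pair the libraries. Leaving out 1 library at a time gave 2 to 9 called genes in the N-glycosylation list (2 without the first LINC00862 library), 7 to 16 in the other ER folding list (7 without the second LINC00862 library) and 1 to 2 in the CREC group (2 without the first NC library). With 1 library less, a group of 2 is assumed to vary like the other. The causes of these moves were not tested. Depth limits what can be said of ERN2, CREB3L3 and PDIA2, which had few or no counts in NC.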
